A study of Mus musculus with 12 samples.

Results

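The 10 genes described here are the FGF ligands Fgf3, Fgf8, Fgf10 and Fgf15 and the feedback and target genes Spry1, Spry2, Spry4, Dusp6, Etv4 and Etv5. They were chosen by symbol from the 24421 gene symbols of the deposited count table, with no measured value in the rule. The choice of these genes and of all lists below was nevertheless made with earlier results of these data known. All 10 genes were among the 14810 with enough counts to be tested. RNA came from mouse embryos of strain C57Bl/6 in 4 groups of 3 libraries, Eftud2+/- (heterozygous, the controls) and Eftud2-/- (homozygous mutant), each at embryonic day 9.0 (E9.0) and 9.5 (E9.5), with no treatment. Eftud2 encodes a spliceosomal GTPase that works in the U5 particle, and the series describes its alteration as limited to neural crest cells. The controls carry 1 altered allele too, no wild-type group was analysed here, and the labels name neither the Cre driver nor the number of embryos in a library. The source was labelled as neural crest cells and the tissue as cranial nerve ganglia, while the dissection protocol describes embryo heads. Transcripts of neural progenitors (Sox2 and other genes, summed to 611 to 757 CPM, read counts relative to library size) and of surface ectoderm (277 to 408 CPM) were present in every library beside those of migrating crest (145 to 296 CPM) and of ganglion neurons (62.6 to 165 CPM), so the values below belong to a mixture of head tissues.

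FGF ligands are secreted proteins that bind receptor tyrosine kinases together with heparan sulphate and activate the RAS, RAF, MEK and ERK cascade. Active ERK induces the ETS transcription factors Etv4 and Etv5, the Sprouty proteins, which dampen the cascade, and Dusp6, a phosphatase that inactivates ERK, so these genes are widely used as readouts of FGF signalling. In the embryonic head, Fgf8 marks signalling centres at the midbrain-hindbrain boundary and the anterior neural ridge and is also made in branchial arch epithelium. Fgf3 is made in the hindbrain and pharyngeal region and acts with Fgf10 in inner ear induction, and Fgf15 is expressed in neural tube near Fgf8 domains.

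The RefSeq promoter table (GRCm38.p6) held 6 of the 10 genes, namely Fgf3, Fgf10, Spry1, Spry2, Dusp6 and Etv5. The 250 bases before the start site are shown for 2 targets that fell between the stages in both genotypes (Spry2, and Etv5 at the second of its 2 listed starts, since the window of the first overlaps an Etv5 exon) and for Dusp6, the target whose genotype ranges separated in opposite directions at the stages. Each is written 5′ to 3′ on the strand of the gene, for Spry2 chr14:105896820-105897069 (minus strand), for Etv5 chr16:22438369-22438618 (minus strand) and for Dusp6 chr10:99262981-99263230 (plus strand). Capitals mark CAGGAA or its reverse complement TTCCTG, letters that hold the GGAA core read by ETS factors.
Spry2: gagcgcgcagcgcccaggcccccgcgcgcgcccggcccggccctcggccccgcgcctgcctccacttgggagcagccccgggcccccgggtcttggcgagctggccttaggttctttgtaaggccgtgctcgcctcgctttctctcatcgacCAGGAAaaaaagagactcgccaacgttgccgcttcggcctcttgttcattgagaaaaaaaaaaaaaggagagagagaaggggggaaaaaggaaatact
Etv5: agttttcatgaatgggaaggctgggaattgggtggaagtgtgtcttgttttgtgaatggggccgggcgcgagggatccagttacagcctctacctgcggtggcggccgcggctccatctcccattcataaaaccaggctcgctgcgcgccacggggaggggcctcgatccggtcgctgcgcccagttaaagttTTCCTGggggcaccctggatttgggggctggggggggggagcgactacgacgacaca
Dusp6: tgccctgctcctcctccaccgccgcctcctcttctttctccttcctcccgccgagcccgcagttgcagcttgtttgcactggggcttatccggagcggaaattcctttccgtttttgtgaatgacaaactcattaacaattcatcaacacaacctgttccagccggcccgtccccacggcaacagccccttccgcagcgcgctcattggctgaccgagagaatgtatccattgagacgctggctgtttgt
These letters and those of another ETS-type motif and the TATA box were searched on both strands. CAGGAA was found once in Spry2, once in Etv5 at this start and not at its other start, and once in Fgf3, and 25.7% of 32851 promoter windows of the same length hold it. The Fgf3 window overlaps an Fgf3 exon. CCGGAA, which 12.03% of windows hold, was in none of the 7 windows of these genes. The same was true of TATAAA, which 12.4% of windows hold. These matches describe the letters only.

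The libraries held 13914543 to 31172708 counts and 17311 to 19783 detected genes, and the composition factors used for scaling (trimmed mean of M-values, TMM) ran from 0.664 to 1.11. The lowest factor belonged to heterozygous E9.0 replicate 1, in which ribosomal Rn45s took 37.4% of the counts. The Rn45s share differed between the stages without overlap, at 6.05% to 37.4% in E9.0 libraries and 4.40% to 5.90% in E9.5 libraries. Levels below are CPM on TMM-scaled library sizes, and differences are log2 fold changes from edgeR's quasi-likelihood test, with adjusted p-values over all 14810 genes and a threshold of 0.05. Eftud2, the altered gene, had 275 to 302 CPM in heterozygous and 232 to 236 CPM in homozygous libraries at E9.0, and 248 to 264 against 221 to 226 CPM at E9.5. Its log2 change was -0.29 (SE 0.05, edgeR adjusted p = 0.0193) at E9.0 and -0.19 (SE 0.05, adjusted p = 0.0906) at E9.5, and the E9.0 call was kept in 3 of 6 fits that left out 1 library. With total counts in place of TMM factors the E9.0 value was -0.08 and did not pass, while the median of all genes moved to 0.19. Relative to that median the Eftud2 value was -0.27, beside -0.28 with TMM. This likeness follows from the shift of all genes and does not show which scaling is right. The ranges did not overlap at either stage and lay in the direction of the labels. The labels do not say that replicates are separate embryos or pools, so p-values measure the spread between these libraries.

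Between the genotypes, none of the 10 genes passed the threshold at E9.0, at E9.5, on average over the stages or in the interaction of genotype and stage. Among all genes tested, edgeR called 0.587% at E9.0, 1.89% at E9.5, 2.96% on average and 0.0675% in the interaction. At an unadjusted p under 0.05 the test gave 1 of the 10 at E9.0 (Dusp6; 13.3% of all genes), 2 at E9.5 (Fgf8 and Dusp6; 13.4%), 1 on average (Etv4; 16.9%) and 2 in the interaction (Fgf8 and Dusp6; 8.6%). The CPM ranges of the genotypes were apart for 1 of the 10 at E9.0 (Dusp6, higher in homozygous, as 9.07% of all genes) and for 2 at E9.5 (Fgf8 and Dusp6, lower, as 9.47% of all genes). At E9.0, 9 of the 10 log2 changes were above 0 with a median of 0.15, beside -0.00 over all genes. At E9.5, 4 of 10 were above 0 with a median of -0.05, beside -0.00 over all genes. DESeq2 and limma-voom, run on the same libraries, also called 0 of the 10 in each of these 4 comparisons.

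**Figure D1:**
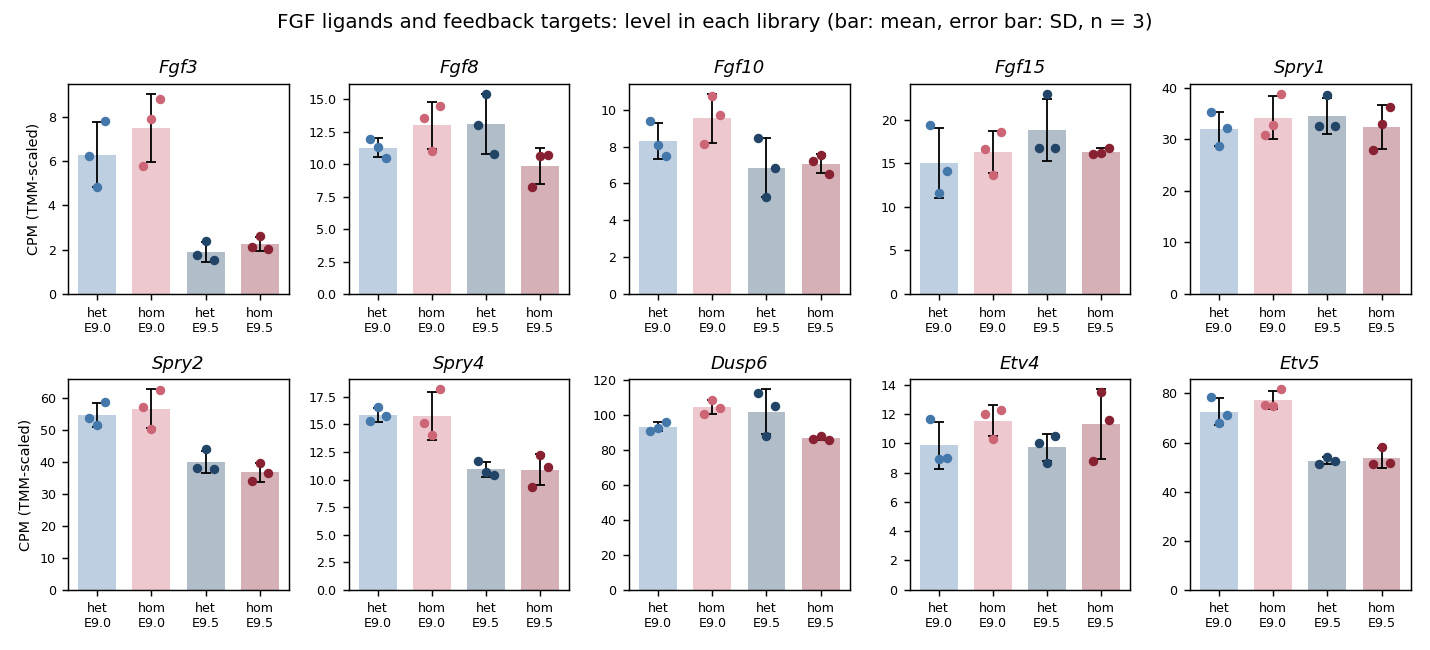
Level of each gene in CPM on TMM-scaled library sizes (y axis, from 0) for heterozygous (het) and homozygous (hom) libraries at E9.0 and E9.5 (x axis). Points are single libraries, bars the mean and error bars the SD of 3 libraries. Fgf3, Spry2, Spry4 and Etv5 are lower in all E9.5 libraries than in all E9.0 libraries, and Dusp6 is higher in homozygous libraries at E9.0 and lower at E9.5.

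Fgf8, the ligand of the boundary and ridge centres (chr19:45736798-45742915, minus strand, GRCm38), was at 11.96, 11.3 and 10.5 CPM in the heterozygous libraries at E9.0 and at 13.5, 11 and 14.5 CPM in the homozygous libraries. At E9.5 the gene was at 13.0, 15.4 and 10.8 CPM in heterozygous and at 8.26, 10.6 and 10.7 CPM in homozygous libraries. The genotypes overlapped at E9.0 and did not overlap at E9.5, where the lowest heterozygous and the highest homozygous library were 10.8 and 10.7 CPM. The log2 change was 0.21 (SE 0.15, 95% interval -0.11 to 0.52, edgeR adjusted p = 0.566) at E9.0. At E9.5 it was -0.41 (SE 0.14, 95% interval -0.70 to -0.12, edgeR adjusted p = 0.163). The difference between these effects was -0.62 (SE 0.20, 95% interval -1.05 to -0.19, edgeR adjusted p = 0.375).

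The high end of the E9.5 heterozygous group was 1 library. Replicate 2 of that group had the highest level of Fgf8, Fgf15, Spry1 and Spry2 among the 3 heterozygous E9.5 libraries, and also the largest sum of 9 midbrain-hindbrain boundary markers, 169 CPM against 92.0 and 106 CPM. The same library had the lowest sums of facial mesenchyme markers (195 CPM against 269 and 289), endothelial markers (124 against 167 and 177) and pharyngeal endoderm markers (13.6 against 24.4 and 26.2). Without it the Fgf8 log2 change at E9.5 was -0.27 (edgeR adjusted p = 0.543). The part of this tissue balance in the Fgf8 values was not tested.

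Fgf15, the mouse counterpart of human FGF19, had a coefficient of variation of 26.4% in the heterozygous libraries at E9.0. Heterozygous libraries had 19.4, 11.6 and 14.1 CPM and homozygous libraries 16.6, 13.7 and 18.6 CPM at E9.0, so the groups overlapped. At E9.5 the heterozygous libraries were at 16.8, 23.0 and 16.7 CPM and the homozygous libraries within 16.1 to 16.8 CPM. The log2 changes were 0.13 (95% interval -0.25 to 0.51) at E9.0 and -0.21 (95% interval -0.55 to 0.14) at E9.5.

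Fgf10, a ligand of mesenchyme and of ear-forming regions, was at 9.40, 8.10 and 7.48 CPM in heterozygous and at 8.12, 10.8 and 9.73 CPM in homozygous libraries at E9.0. At E9.5 it was at 8.45, 5.25 and 6.85 against 7.22, 7.52 and 6.49 CPM. The groups overlapped at both stages, with log2 changes of 0.21 (95% interval -0.14 to 0.56) and 0.05 (95% interval -0.28 to 0.38).

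Fgf3 was at 6.24, 4.83 and 7.78 CPM in heterozygous and 5.79, 7.90 and 8.78 CPM in homozygous libraries at E9.0. At E9.5 the levels were 1.77, 2.38 and 1.53 against 2.12, 2.61 and 2.03 CPM. Its log2 change between the genotypes was 0.25 at each stage (95% intervals -0.18 to 0.68 and -0.23 to 0.73), and the groups overlapped. With 1 library left out the value ran from 0.086 (without heterozygous replicate 2) to 0.45 (without heterozygous replicate 3) at E9.0 and from 0.13 (without heterozygous replicate 3) to 0.46 (without heterozygous replicate 2) at E9.5. Fgf3 rested on 43 to 181 counts per library, the fewest of the 10 genes, and its intervals between the genotypes were the widest.

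Dusp6 (chr10:99263231-99267489, plus strand) encodes the ERK phosphatase and had the most counts of the 10 genes, 1240 to 3693 per library. At E9.0 the heterozygous libraries were at 91.0, 92.5 and 96.1 CPM and the homozygous libraries at 101, 109 and 104 CPM. At E9.5 the heterozygous libraries were at 113, 87.8 and 105 CPM and the homozygous libraries at 86.0, 87.8 and 85.9 CPM. Homozygous libraries thus lay above the heterozygous ones at E9.0 and below them at E9.5, where the nearest values were 87.76 and 87.84 CPM. Such a crossing, with ranges apart at each stage and homozygous higher first, was seen in 0.506% of all genes tested.

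The log2 change of Dusp6 was 0.16 (SE 0.07, 95% interval 0.0048 to 0.32, edgeR adjusted p = 0.362) at E9.0 and -0.23 (SE 0.07, 95% interval -0.39 to -0.08, adjusted p = 0.130) at E9.5. The difference between the effects was -0.40 (SE 0.10, 95% interval -0.62 to -0.18, edgeR adjusted p = 0.238), so the crossing did not pass the test. Heterozygous E9.5 replicate 2, the library with the large boundary sum, was the low one of its group here. Without it the E9.5 change was -0.33 (edgeR adjusted p = 0.0129) and the interaction -0.49 (adjusted p = 0.0336). Leaving out replicate 1 of that group gave an E9.5 change of -0.15 (edgeR adjusted p = 0.414).

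Of the Sprouty genes, Spry1 was at 35.2, 28.6 and 32.2 CPM in heterozygous and 30.9, 32.8 and 38.8 CPM in homozygous libraries at E9.0, and at 32.7, 38.6 and 32.5 against 28.0, 33.0 and 36.3 CPM at E9.5. Its ratio of homozygous to heterozygous was 1.07 (95% interval 0.903 to 1.27) and 0.936 (0.797 to 1.10) at the stages. Spry2 was at 54.0, 51.8 and 58.9 against 57.2, 50.5 and 62.6 CPM at E9.0 and at 38.2, 44.0 and 37.8 against 33.96, 39.9 and 36.7 CPM at E9.5. For Spry2 the ratio was 1.03 (0.905 to 1.18) and 0.921 (0.809 to 1.05).

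Spry4 was at 15.3, 16.6 and 15.7 CPM in heterozygous and 15.1, 14.0 and 18.2 CPM in homozygous libraries at E9.0, and at 11.7, 10.7 and 10.4 against 9.34, 12.2 and 11.2 CPM at E9.5. Its ratios were 0.991 (95% interval 0.836 to 1.17) and 0.998 (0.847 to 1.18). All Sprouty comparisons between the genotypes overlapped. The intervals do not show that the genotypes were equal.

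Etv4 and Etv5 are ETS transcription factors induced by ERK. Etv4 was at 11.7, 8.90 and 8.99 CPM in heterozygous and 12.03, 10.3 and 12.3 CPM in homozygous libraries at E9.0, and at 10.03, 8.66 and 10.5 against 8.80, 13.5 and 11.6 CPM at E9.5. The groups overlapped at both stages, and the log2 change was 0.24 (95% interval -0.10 to 0.57) and 0.22 (95% interval -0.08 to 0.53). With 1 library left out it ran from 0.17 to 0.36 at E9.0, the latter without heterozygous replicate 1, and from 0.074 (without homozygous replicate 2) to 0.38 (without homozygous replicate 1) at E9.5. Averaged over the stages it was 0.23 (SE 0.11, 95% interval 0.0030 to 0.46, edgeR adjusted p = 0.290). Etv5 was at 78.5, 67.8 and 71.1 against 75.5, 74.8 and 81.7 CPM at E9.0 and at 51.3, 54.1 and 52.4 against 51.2, 58.3 and 51.5 CPM at E9.5. Its ratio was 1.07 (95% interval 0.964 to 1.18) and 1.02 (0.922 to 1.13), and the groups overlapped.

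**Figure D2:**
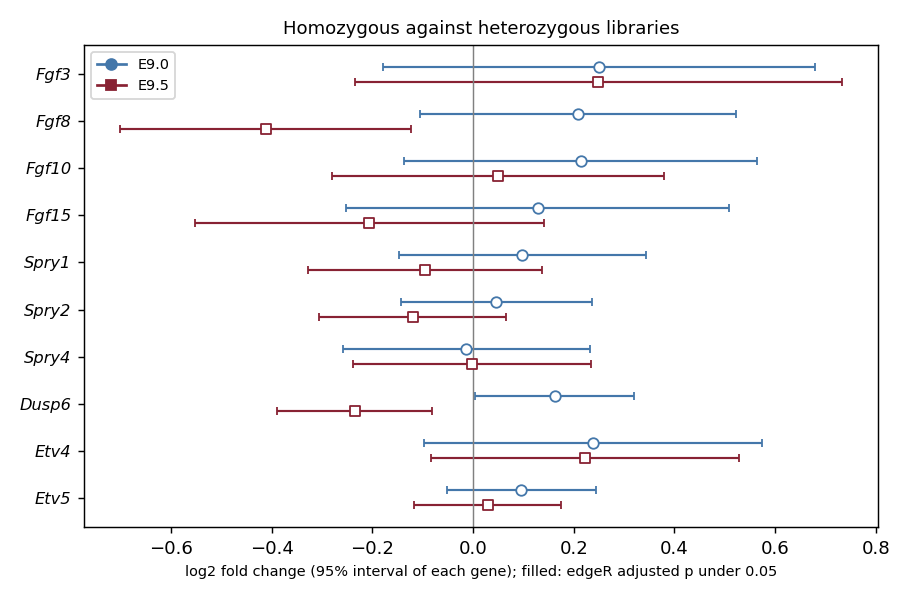
Log2 fold change of homozygous against heterozygous libraries (x axis) for the 10 genes (y axis) at E9.0 (circles) and E9.5 (squares), with the 95% interval of each gene. Open symbols mark an edgeR adjusted p at or above 0.05, and all 20 are open. The intervals that leave out 0 belong to Dusp6 at both stages and to Fgf8 at E9.5.

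Set per kilobase of annotated exon, the order of levels was nearly the same in the 4 groups. Dusp6 was first with a group mean of 30.9 to 37.3 CPM per kb, followed by Spry2 (17.6 to 27.2), Etv5 (12.8 to 18.8) and Spry1 (11.02 to 11.9). Fgf8 (7.30 to 9.69 CPM per kb) and Fgf15 (8.30 to 10.4) came next and changed places between the stages. Their library ranges overlapped in each group except homozygous E9.5, where Fgf8 was at 6.12 to 7.92 and Fgf15 at 8.87 to 9.26 CPM per kb. Etv4 (4.05 to 4.81) and Spry4 (2.29 to 3.34) followed. Fgf3 was above Fgf10 at E9.0, with 2.70 against 2.02 CPM per kb in heterozygous libraries, and below it at E9.5, with 0.813 against 1.67. Their library ranges overlapped at E9.0 in both genotypes and did not overlap at E9.5.

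More of the 10 genes passed between the stages than between the genotypes. In heterozygous libraries 4 of the 10 genes fell from E9.0 to E9.5 (Fgf3, Spry2, Spry4 and Etv5) and 0 rose, where edgeR called 16% of all genes lower and 19.2% higher. In homozygous libraries 7 fell (the same 4 with Fgf8, Fgf10 and Dusp6) and 0 rose, beside 15.8% lower and 19.6% higher among all genes. Ranges were apart for the same genes, beside 22.5% of all genes lower without overlap in heterozygous and 22.1% in homozygous libraries. The median log2 change of the 10 was -0.14 and -0.41, beside 0.01 and 0.01 over all genes. Both stage comparisons are given with their own controls of the same genotype, and the difference between them is the interaction described above, which no gene of the 10 passed.

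Fgf3 had the largest stage change of the 10. It fell by 1.73 on the log2 scale in heterozygous (SE 0.22, edgeR adjusted p = 1.8e-05) and by 1.73 in homozygous libraries (SE 0.21, adjusted p = 1.4e-05), that is to 0.302 and 0.301 of the E9.0 level. Every E9.5 library was below every E9.0 library, the highest at 2.61 CPM and the lowest E9.0 library at 4.83 CPM. Fgf15 starts 52.1 kb downstream of the end of Fgf3 on the same strand of chromosome 7 and did not move with it, with log2 changes of 0.34 (SE 0.17, edgeR adjusted p = 0.131) and 0.01 (SE 0.17, adjusted p = 0.976). The 5 rhombomere markers, genes of the hindbrain where Fgf3 is made, summed to 62.3 to 80.9 CPM at E9.0 and 42.2 to 56.7 CPM at E9.5, and 2 of the 5 fell in each genotype. Otic placode markers summed to 52.5 to 80.4 CPM at E9.0 and 25.3 to 34.6 CPM at E9.5. Of these 5, 2 fell and 1 rose in heterozygous and 1 fell and 1 rose in homozygous libraries. Pharyngeal endoderm markers summed to 32.6 to 45.6 and 13.6 to 38.7 CPM. Of these 6, 3 fell and 0 rose in heterozygous and 1 fell and 1 rose in homozygous libraries. The part of these tissues in the Fgf3 values was not tested. In bulk RNA fewer cells of a type and less RNA per cell cannot be told apart.

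Of the ERK targets, Spry2, Spry4 and Etv5 fell together in both genotypes. Spry2 fell by 0.46 (SE 0.09, edgeR adjusted p = 8.1e-04) in heterozygous and by 0.62 (SE 0.09, adjusted p = 6.1e-05) in homozygous libraries. Spry4 fell by 0.54 (SE 0.11, adjusted p = 0.00149) and by 0.53 (SE 0.11, adjusted p = 0.00195), and Etv5 fell by 0.46 (SE 0.07, adjusted p = 9.9e-05) and by 0.53 (SE 0.07, adjusted p = 2.8e-05), also by edgeR. Their E9.5 levels were 0.650 to 0.729 of the E9.0 levels, and their ranges at the stages did not overlap in either genotype. The calls of Fgf3, Spry2, Spry4 and Etv5 were kept whichever of the 6 libraries was left out, in each genotype. Spry1 and Etv4, from the same families, gave log2 changes of 0.12 (SE 0.11) and -0.01 (SE 0.15) in heterozygous and -0.08 (SE 0.11) and -0.02 (SE 0.15) in homozygous libraries, with edgeR adjusted p-values of 0.451 to 0.978.

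Dusp6, Fgf8 and Fgf10 passed in homozygous libraries only, which is no test of a difference between the genotypes. Dusp6 fell by 0.27 (SE 0.07, edgeR adjusted p = 0.00929) in homozygous libraries, a call kept in 6 of 6 fits without 1 library and lost with total counts only (-0.10, adjusted p = 0.677), and gave 0.13 (SE 0.07, adjusted p = 0.195) in heterozygous ones. Fgf8 fell by 0.39 (SE 0.14, adjusted p = 0.0434) in homozygous and gave 0.23 (SE 0.14, adjusted p = 0.231) in heterozygous libraries. Fgf10 fell by 0.44 (SE 0.16, adjusted p = 0.0456) and gave -0.27 (SE 0.16, adjusted p = 0.207). The calls of Fgf8 and Fgf10 were each kept in 1 of 6 edgeR fits without 1 library, with adjusted p up to 0.178 and 0.181, and neither passed by limma-voom (0.0691 and 0.0589). Without heterozygous E9.5 replicate 2 the heterozygous Dusp6 change was 0.22 (edgeR adjusted p = 0.0103), and without replicate 1 of that group the Fgf10 change was -0.45 (adjusted p = 0.0463). Leaving out heterozygous E9.0 replicate 1 gave 0.55 for Fgf15 (edgeR adjusted p = 0.0134).

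The stage calls depend on scaling. Other factors move all genes by about the same amount. Values relative to the median of all genes therefore stay nearly the same and do not show which scaling is right. With total counts in place of TMM factors the median of all genes moved to 0.38 in heterozygous and 0.18 in homozygous libraries, and the share of called genes that were higher at E9.5 was 96.3% and 87.1% in place of 54.4% and 55.3%. On that scale Spry2, Spry4 and Etv5 gave -0.09, -0.17 and -0.08 in heterozygous libraries and did not pass, while Fgf8 (0.60), Fgf15 (0.74), Spry1 (0.50) and Dusp6 (0.50) were called higher. In homozygous libraries Spry2 was still called lower by total counts (-0.45, edgeR adjusted p = 0.0278), while Fgf8 (-0.22), Fgf10 (-0.27), Spry4 (-0.35), Etv5 (-0.35) and Dusp6 did not pass. Relative to the shifted median the homozygous Dusp6 change was -0.29, beside -0.28 with TMM. On that footing the heterozygous changes were -0.47 for Spry2, -0.55 for Spry4 and -0.45 for Etv5, beside -0.46, -0.55 and -0.47 with TMM. Those called higher by total counts were at 0.22 (Fgf8), 0.36 (Fgf15), 0.12 (Spry1) and 0.12 (Dusp6), beside 0.22, 0.33, 0.11 and 0.12 with TMM, where they did not pass. Fgf3 passed on both scales in both genotypes, with -1.36 and -1.56 by total counts.

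**Figure D3:**
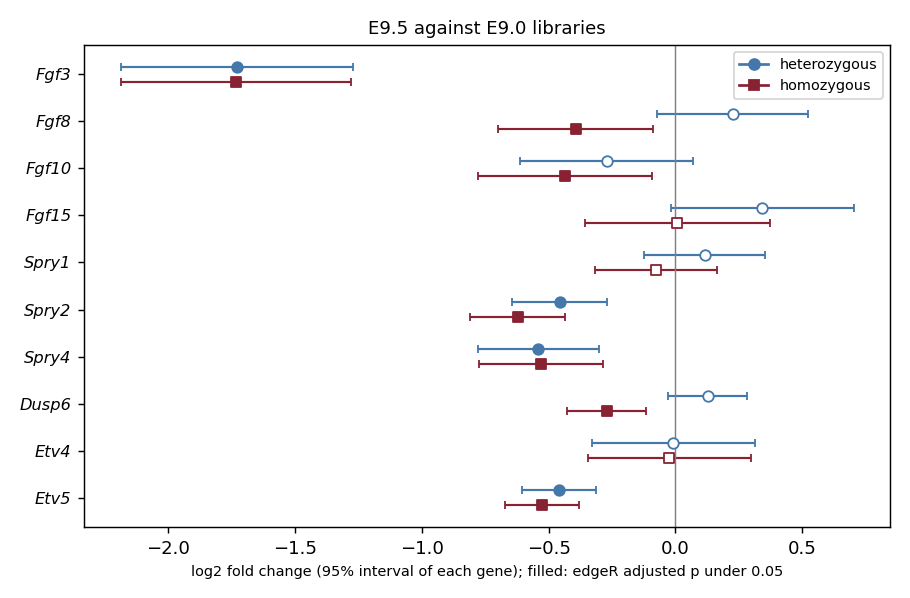
Log2 fold change of E9.5 against E9.0 libraries (x axis, TMM scaling) for the 10 genes (y axis) in heterozygous (circles) and homozygous (squares) embryos, with the 95% interval of each gene. Filled symbols mark an edgeR adjusted p under 0.05, 4 in heterozygous and 7 in homozygous libraries. Fgf3 lies farthest from 0, near -1.73 in both genotypes.

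Every E9.5 library held a smaller share of Rn45s than every E9.0 library. With Rn45s left out of scaling, 5208 genes were called between the stages in heterozygous and 5267 in homozygous libraries, beside 5216 and 5238. Other effects of this share on the FGF genes were not tested. The TMM-scaled library sizes were apart as well, at 13302421 to 23255616 counts at E9.0 and 26666580 to 34073423 at E9.5. The stage therefore cannot be told apart from any difference in how the libraries of each stage were made. The E9.5 libraries also differed from the E9.0 libraries in tissue markers. Heart and second heart field markers summed to 46.4 to 180 CPM at E9.0 and 849 to 1253 CPM at E9.5, with 6 of 6 called higher in each genotype. Erythroid markers summed to 527 to 1152 CPM and 2748 to 5128 CPM, with 5 of 5 called higher. Ganglion neuron markers summed to 62.6 to 66.7 CPM at E9.0 and 120 to 165 CPM at E9.5, with 6 of 7 called higher in each genotype. Midbrain-hindbrain boundary markers went the other way, with 5 of 9 lower and 1 higher in heterozygous (median log2 change -0.83) and 8 of 9 lower in homozygous libraries (median -1.43), where Fgf8 fell. Migrating crest markers were lower in 5 of 6 and 4 of 6. Beside these counts, 19.2% of all genes were called higher and 16% lower in heterozygous libraries. In homozygous libraries the shares were 19.6% and 15.8%. The part of these tissue markers in the stage changes of the FGF genes was not tested.

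Of 72 other genes of the pathway in 5 lists, 62 were tested. Between the genotypes, 0 passed at E9.0, 1 rose and 2 fell at E9.5, 1 rose and 5 fell on average over the stages, and 0 passed in the interaction. Among all genes 1.19% were called higher and 0.702% lower at E9.5, and 1.82% and 1.14% on average. The median log2 change of the 62 was -0.02 at E9.0, 0.02 at E9.5 and -0.00 on average.

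Among 14 other secreted ligands, of which 7 were tested, Fgf18, a ligand of the Fgf8 subfamily, fell. It was at 2.13, 1.98 and 2.06 CPM in heterozygous and 1.35, 0.802 and 1.15 CPM in homozygous libraries at E9.0, and at 3.54, 4.52 and 3.59 against 2.26, 1.78 and 2.36 CPM at E9.5. Ranges of the genotypes were apart at each stage. The log2 change was -0.92 (SE 0.25, edgeR adjusted p = 0.117) at E9.0, -0.87 (SE 0.18, adjusted p = 0.0205) at E9.5 and -0.90 (SE 0.15, adjusted p = 0.00357) on average. The average call was kept in 12 of 12 fits without 1 library, and the E9.5 call in 3 of 6. Fgf17, another Fgf8-subfamily ligand of the boundary, gave -0.42 (SE 0.30) and -0.47 (SE 0.24) at the stages and did not pass.

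Il17rd, also called Sef, a membrane inhibitor of FGF signalling, was at 127, 125 and 139 CPM in heterozygous and 108, 112 and 123 CPM in homozygous libraries at E9.0. At E9.5 it was at 109, 137 and 115 against 73.5, 94.0 and 90.8 CPM. The ranges were apart at both stages, and the gene fell by 0.48 (SE 0.10, edgeR adjusted p = 0.0194) at E9.5 and by 0.34 (SE 0.07, adjusted p = 0.0164) on average. The E9.5 call was kept in 4 of 6 fits without 1 library, and without heterozygous E9.5 replicate 2 the value was -0.37 (edgeR adjusted p = 0.0768). Dusp5, a nuclear ERK phosphatase, rose by 0.32 (SE 0.08, edgeR adjusted p = 0.0441) on average, in the opposite direction to Il17rd, and that call was kept in 3 of 12 such fits. These were the 2 of 15 tested genes in the list of other feedback inhibitors and ERK-responsive genes that passed a genotype comparison.

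In the remaining lists, Flrt1, a membrane partner of FGF receptors, fell by 1.003 on average (SE 0.18, edgeR adjusted p = 0.00973), and 0 of the other 7 receptors and co-receptors tested passed. Fgfr1, Fgfr2 and Fgfr3, the main receptors of the head, gave values between -0.14 and 0.07 at the stages. Of 19 transducers, the adaptor Gab1 rose by 0.27 at E9.5 (SE 0.06, edgeR adjusted p = 0.0224), a call kept in 1 of 6 fits without 1 library. The RAS exchange factor Sos2 fell by 0.21 on average (SE 0.04, edgeR adjusted p = 0.0166). Of 13 heparan sulphate enzymes and proteoglycans, the glypican Gpc1 fell by 0.22 on average (SE 0.04, edgeR adjusted p = 0.00925). With total counts only, Sos2 (-0.12), Gpc1 (-0.12) and Il17rd (-0.24) did not pass on average. Relative to the median of all genes, which moved to 0.09, they were at -0.21, -0.21 and -0.34, beside -0.21, -0.22 and -0.33 with TMM. That likeness again follows from the shift of all genes. At E9.5 total counts also ended the calls of Il17rd (-0.49, edgeR adjusted p = 0.209) and Gab1 (0.26, adjusted p = 0.793), at about the same values. Fgf18 kept its E9.5 call (-0.87, edgeR adjusted p = 0.0438), and Flrt1 gained one (-1.02, adjusted p = 0.0148).

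**Figure D4:**
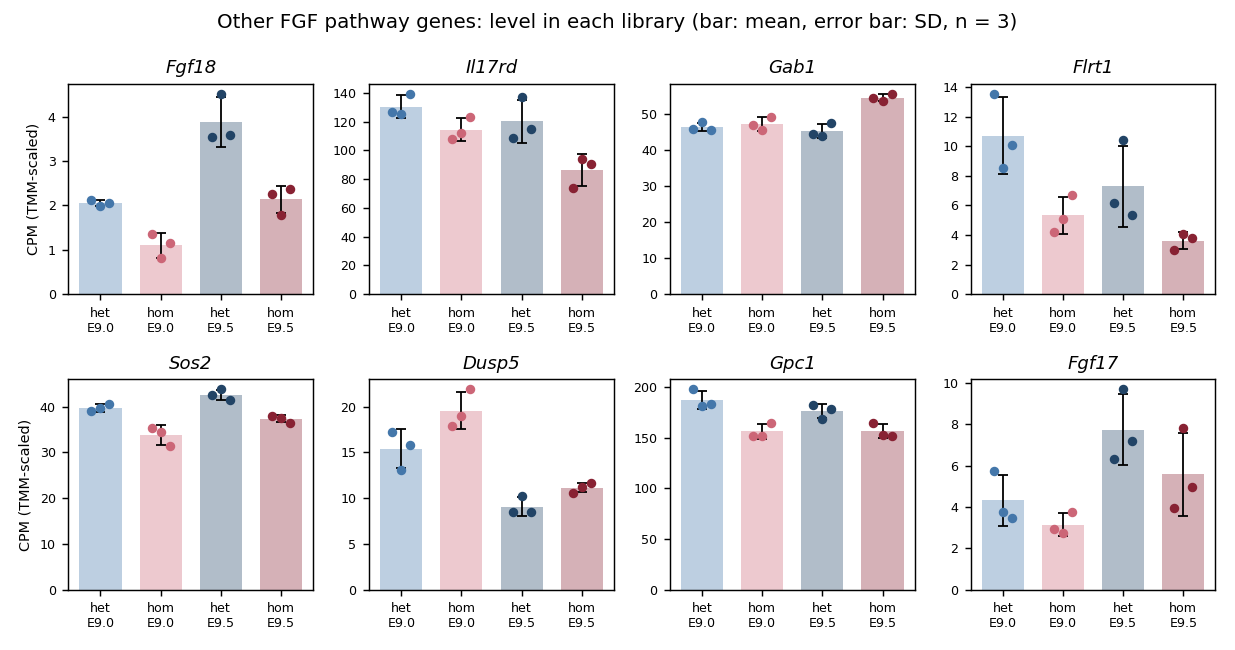
Level in CPM on TMM-scaled library sizes (y axis, from 0) of 7 other pathway genes that passed a genotype comparison and of Fgf17, which did not, in the 4 groups (x axis). Points are libraries, bars the mean and error bars the SD of 3. Fgf18, Flrt1, Sos2, Il17rd and Gpc1 are lower in all homozygous libraries than in all heterozygous libraries of the same stage.

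Between the stages, 12 of the 62 rose and 20 fell in heterozygous and 14 rose and 14 fell in homozygous libraries, beside the shares of all genes given above. Fgf16 had the largest fall among the other ligands, -1.56 (SE 0.30) and -1.59 (SE 0.31) on the log2 scale. Fgf18 rose by 0.92 (SE 0.19) in heterozygous and by 0.97 (SE 0.23) in homozygous libraries, where its rise was the largest of the list. In heterozygous libraries the largest rise of the list was that of Fgf1, by 0.95 (SE 0.29). Among the receptors Fgfr3 rose by 0.90 in each genotype (SE 0.08) and Fgfr4 fell by 1.17 (SE 0.29) and by 1.38 (SE 0.29). In the feedback and ERK-responsive list 3 rose and 8 fell in heterozygous and 4 rose and 7 fell in homozygous libraries. The largest fall there was that of Phlda1, by 0.85 (SE 0.15), in heterozygous and of the ERK phosphatase Dusp4, by 0.83 (SE 0.08), in homozygous libraries. Fos, an immediate early gene, rose by 2.89 (SE 0.89) and 2.48 (SE 0.75), calls that were kept in 1 of 6 and 3 of 6 fits without 1 library. The edgeR adjusted p-values of the genes named here for the stages ran from 5.4e-07 (Fgfr3, heterozygous) to 0.0335 (Fos, heterozygous).

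The midbrain-hindbrain boundary, where Fgf8 is the central ligand, was among the marker lists with genes called between the genotypes at E9.5. Among all genes edgeR called 1.19% higher and 0.702% lower there. Others were migrating crest (4 of 6 fell, median log2 change -0.96), facial mesenchyme (4 of 7 fell, -0.63) and endothelium (4 of 5 rose, 0.64). Fewer genes were called in ganglion neurons (2 of 7 fell, -0.09), pharyngeal endoderm (2 of 6 rose, 0.80) and heart and second heart field (1 of 6 rose, 0.35). In the otic placode, the inner ear rudiment, Tbx1 rose by 0.96 and Sox10 fell by 1.14 (of 5, median 0.22). The marker lists were chosen with earlier results of these data known. They share genes, among them Sox10 (crest and otic placode) and Isl1 (heart and ganglion neurons). Of the 9 boundary markers 5 fell, En1 by 3.88 (SE 0.50), En2 by 4.64 (SE 0.39), Pax5 by 2.44 (SE 0.43), Cnpy1 by 4.96 (SE 0.62) and Wnt1 by 0.93 (SE 0.17) on the log2 scale, with edgeR adjusted p-values of 6.9e-04 to 0.0163. The call of Pax5 was kept in 4 of 6 fits without 1 library. The Cnpy1 value rests on 1, 3 and 4 counts in the homozygous libraries, near the limit of detection, so its size is uncertain. The summed level of the list was 92.0 to 169 CPM in heterozygous and 51.5 to 58.6 CPM in homozygous libraries at E9.5, and 148 to 182 against 104 to 121 CPM at E9.0. At E9.0, 0 of the 9 markers passed and 0 were above 0, with a median log2 change of -0.59. Fgf8 did not go with them at that stage, with 0.21 (95% interval -0.11 to 0.52). En1 was at 5.52, 13.2 and 7.64 CPM in heterozygous and at 1.01, 0.553 and 0.188 CPM in homozygous libraries at E9.5. The other 4 markers did not pass, with log2 changes of -0.48 (SE 0.16) for Otx2, -0.35 (SE 0.28) for Pax8, 0.03 (SE 0.13) for Gbx2 and 0.15 (SE 0.35) for Pax2. Over the same libraries the Fgf8 change was -0.41, with an interval of -0.70 to -0.12. Heterozygous E9.5 replicate 2 was the high library for Otx2 too (67.1 CPM against 41.7 and 42.7), and without it the values were -0.27 for Fgf8, -0.22 for Otx2 and 0.12 for Pax8. With 1 library left out Fgf8 ran from -0.53 to -0.27, Otx2 from -0.60 to -0.22 and Pax8 from -0.62 to 0.12. Fgf8 is also made in other head tissues, and the anterior neural ridge and forebrain list summed to 69.5 to 88.2 CPM in heterozygous and 78.8 to 119 CPM in homozygous libraries at E9.5, with 0 of 6 markers called. Pharyngeal endoderm markers summed to 13.6 to 26.2 CPM in heterozygous and 33.0 to 38.7 CPM in homozygous libraries, and surface ectoderm markers, of which 1 of 6 rose, to 277 to 322 and 327 to 408 CPM. The part of these tissues in the Fgf8 level was not tested.

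**Figure D5:**
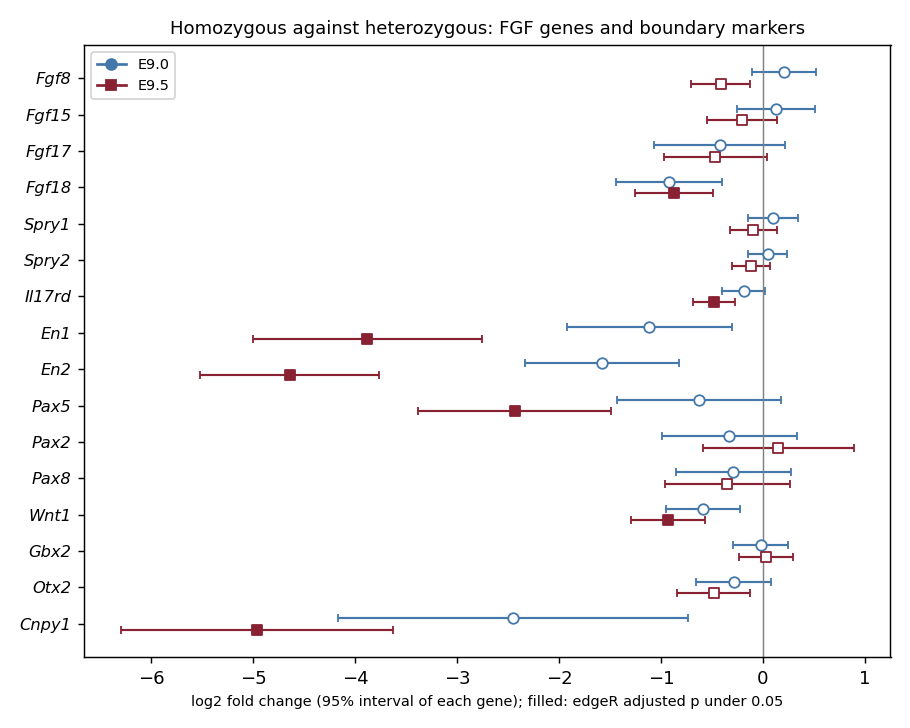
Log2 fold change of homozygous against heterozygous libraries (x axis) for 7 FGF pathway genes and the 9 midbrain-hindbrain boundary markers (y axis) at E9.0 (circles) and E9.5 (squares), with the 95% interval of each gene. Filled symbols mark an edgeR adjusted p under 0.05. En1, En2, Pax5 and Cnpy1 lie below -2 at E9.5, and Fgf8 lies at -0.41.

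As a description, the levels of 13093 genes over the 12 libraries were compared with Fgf8 after the stage means were subtracted. The most alike were Snord104 (Pearson r 0.89), Dancr (0.86) and Ccdc88c (0.86). Of the other 9 genes, Spry2 (0.76), Spry1 (0.69) and Fgf15 (0.67) were nearest to Fgf8, Dusp6 was at 0.28 and Fgf10 at -0.21. The libraries share depth and tissue balance, so these values are no measure of shared control.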

How the data were processed

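RNA from 12 mouse libraries was measured as raw read counts per gene symbol. The authors' deposited table holds whole-number counts, and per the submitters' processing notes cutadapt, STAR, featureCounts and MultiQC were used with genome mm10. Versions, gene annotation and strand setting are not given in the sources used here, so reads of Fgf10, Fgf15 and Spry1 cannot be told apart from those of opposite-strand genes that overlap their exons. Genes passing edgeR's expression filter (14810 of 24421) were fitted in 1 quasi-likelihood model with 4 group means, TMM factors and robust dispersions (edgeR 4.0.16, R 4.3.3), with Benjamini-Hochberg adjustment over all of them. SE is the absolute log2 change divided by the root of F, and 95% intervals are per gene and unadjusted. An exact permutation test of 3 against 3 libraries cannot go below p = 0.1. Exon lengths and positions come from GENCODE M21 (GRCm38), promoters from RefSeq (GRCm38.p6). Alternatives were other factors, DESeq2 1.42.0, limma 3.58.1 (voom), other filters, a replicate block, the 2 groups alone and each library left out. Named genes were all 10 members, Eftud2, listed pathway genes past the threshold in a genotype comparison, and the 3 genes most like Fgf8. For the stages they were extreme genes of the ligand, receptor and feedback lists, and those of the transducer and heparan sulphate lists were not named. Fgf17, Fgfr1 to Fgfr3 and some markers were named after their values were seen. The members and all lists were chosen with earlier results of these data known. The fit was tested on simulated counts first. On 1 simulated data set it gave more false calls at E9.0 than the limit set for it, and a limit on the mean false share over 10 data sets, that one included, replaced it afterwards and was met.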

Additional observations from a re-analysis of the deposited data

Results flagged for a closer look

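Dusp6 was singled out because its genotype difference had opposite directions at the stages with ranges that did not overlap at either. Homozygous libraries were at 104 ± 4.1 CPM against 93.2 ± 2.6 CPM (SD, n = 3) at E9.0 and at 86.6 ± 1.0 against 102 ± 12.7 CPM at E9.5. The difference between the log2 effects was -0.40 and did not pass the interaction test (edgeR adjusted p = 0.238).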

How the results depend on the processing

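Precision is limited by 3 libraries a group and, for Fgf3, by 43 to 181 counts. No gene of the 10 was called at E9.0 or on average under any alternative. At E9.5 and in the interaction 0 to 1 was called when 1 library was left out (Dusp6, without heterozygous E9.5 replicate 2).

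Numbers of called genes moved as follows. With an adjusted p under 0.01 they were 34 at E9.0, 81 at E9.5, 159 on average, 1 in the interaction, and 3324 and 3384 for the stages in heterozygous and homozygous libraries. With total counts only they were 123 at E9.5 and 3326 for the homozygous stage comparison, in which 2 of the 10 genes (Fgf3 and Spry2) were then called; the share of higher calls was 96.2% at E9.0, 47.2% at E9.5 and 84.8% on average in place of 73.6%, 62.9% and 61.5%, and the median of all genes at E9.0 moved to 0.19. DESeq2 called 203 genes at E9.0, 449 at E9.5 and 74 in the interaction, and limma-voom called 51 at E9.0 and 5 in the interaction. The cause was not tested, other than the stricter threshold. Leaving out 1 library gave 38 to 86 genes at E9.0, 133 to 252 at E9.5, 246 to 411 on average and 1 to 16 in the interaction, from fits with fewer samples in which a group of 2 shares the spread of the others.

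Values near 0 changed sign. Spry4 between the genotypes was 0.015 (upper quartile) at E9.0, and 0.00021 (RLE), 0.0023 (upper quartile), 0.00021 (DESeq2) and 0.0031 (mean of at least 50 counts) at E9.5. Fgf15 between the stages in homozygous libraries was -0.0045 (RLE), -0.0024 (upper quartile) and -0.0065 (DESeq2). Etv4 between the stages was 0.0054 (upper quartile), 0.0075 (limma-voom), 0.013 (no filter) and 0.0023 (mean of at least 50 counts) in heterozygous and 0.016 (no filter) in homozygous libraries. With total counts, which shift all genes together, Spry4 was 0.17 between the genotypes at E9.0, and between the stages Fgf10 was 0.11 and Etv4 0.38 in heterozygous and Spry1 0.098 and Etv4 0.15 in homozygous libraries. Relative to the shifted medians the stage values were -0.27, 0.0034, -0.086 and -0.034, beside -0.28, -0.016, -0.092 and -0.038 with TMM, and Spry4 was -0.019, beside -0.0092.

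With 1 library left out, the values that changed sign ran as follows at E9.0: Spry4 from -0.13 to 0.067, Fgf15 from -0.027 to 0.33, Spry1 from -0.0039 to 0.17 and Spry2 from -0.031 to 0.13. At E9.5 they were Spry4 from -0.090 to 0.10, Spry1 from -0.18 to 0.0050, Fgf10 from -0.11 to 0.23 and Etv5 from -0.033 to 0.066, and of the boundary markers Gbx2 from -0.048 to 0.078, Pax2 from -0.083 to 0.57 and Pax8 from -0.62 to 0.12. Between the stages they were Etv4 from -0.072 to 0.12 in heterozygous, and Etv4 from -0.17 to 0.13, Fgf15 from -0.10 to 0.12 and Spry1 from -0.16 to 0.024 in homozygous libraries. Other values kept their sign and moved by over 1.5 times. Between the genotypes these were Fgf8 from 0.12 to 0.32, Fgf10 from 0.11 to 0.31 and Etv5 from 0.048 to 0.15 at E9.0, and Fgf15 from -0.28 to -0.032 and Spry2 from -0.18 to -0.041 at E9.5. Between the stages in heterozygous libraries they were Fgf8 from 0.090 to 0.34, Fgf10 from -0.45 to -0.11, Fgf15 from 0.17 to 0.55, Spry1 from 0.029 to 0.19 and Dusp6 from 0.050 to 0.22. Fgf3, Etv4, Fgf8 and Dusp6 between the genotypes are given with their levels above.

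Whether the replicate numbers pair the libraries is not settled here. Deviations from group means of same-numbered libraries had r from -0.17 to 0.11. Between the genotypes of a stage r was 0.030 to 0.11 at E9.0 and 0.031 to 0.069 at E9.5. Such low values show no strong pairing and cannot exclude a weaker one. With the replicate number as a block the counts were 69, 248, 383, 9, 5019 and 5012 genes in the order above, and Fgf8 (adjusted p = 0.0594) and Fgf10 (0.0536) lost the homozygous stage call (edgeR), leaving 5 of the 10.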
